A study of Mus musculus with 18 samples.

Results

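The mRNAs of 8 genes that encode replication-independent histones were followed through polysome gradients of mouse embryonic stem cells (ESCs), out of 51467 genes in the count table. They were the H2A variants H2afz, H2afv, H2afx and H2afy, the H3.3 genes H3f3a and H3f3b, and the linker histones H1f0 and H1fx. They came from a fixed list of symbols and matched to the gene identifiers of the table, and all 8 passed the filter on low counts that left 12705 genes. The ESCs were the V6.5 line, either wild type (WT) or with both copies of Ddx6 disrupted by CRISPR-Cas9 (Ddx6 KO). DDX6 is a DEAD-box helicase that links miRNA repression, decapping and the storage of mRNAs. All cells were grown with fetal bovine serum, LIF and the inhibitors PD0325901 and CHIR99021 (2i), and all were given 100 ug/ml cycloheximide for 2 minutes before lysis. Each lysate was separated on a sucrose gradient into a monosome fraction, a low polysome fraction holding mRNAs with 2 to 4 ribosomes and a high polysome fraction from 4 ribosomes up. Each genotype had 3 gradients, which makes 6 groups of 3 libraries (18 in all). The KO stands for only 2 clones, the first behind gradient 1 and the second behind gradients 2 and 3.

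Most histone proteins are made from replication-dependent genes (here the symbols Hist1h to Hist4h). Their mRNAs appear in S phase and end in a conserved stem-loop, bound by SLBP, in place of a poly(A) tail. Histone variants are made through the whole cell cycle from genes whose mRNAs are polyadenylated, and they replace the canonical proteins at chosen places: H3.3 at active genes and telomeres, H2A.Z at promoters, H2A.X in chromatin around DNA breaks, macroH2A on silent chromatin, and H1.0 and H1x between nucleosomes. The libraries were made by priming on poly(A), with each read marking the 3′ end of a transcript. Polyadenylated variant mRNAs are therefore measured directly. An mRNA that ends in a stem-loop should be seen only through whatever polyadenylated form it has.

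H2afx is known for having both kinds of 3′ end, and the annotation carried the mark of it. All H2afx levels and changes given below are therefore taken as those of its polyadenylated form, not of its total mRNA. The positions of its reads were not examined. The 16-base histone stem-loop motif, searched on the sense strand of annotated 3′ UTRs with its 6 outer bases on each side required to pair, was found in H2afx and in no other of the 8 genes. It was at chr9:44335240-44335255 (GRCm38, plus strand), in the 3′ UTR of the single H2afx exon, and began at base 47 after the stop codon. The same motif was in 0.264% of 11742 tested protein-coding genes with a 3′ UTR and in 84.6% of 52 Hist1h to Hist4h genes. It is shown here for H2afx beside the 4 tested replication-dependent genes with the highest mean abundance among those that have it, all on chromosome 13, with the stem-loop in capitals and 5 bases of flank on each side.
H2afx: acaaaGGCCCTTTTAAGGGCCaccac
Hist1h4d: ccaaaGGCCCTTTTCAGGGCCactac
Hist1h1c: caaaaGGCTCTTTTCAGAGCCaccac
Hist1h1d: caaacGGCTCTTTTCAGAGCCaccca
Hist1h1e: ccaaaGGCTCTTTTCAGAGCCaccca
The replication-dependent copies were at chr13:23581950-23581965 (plus strand) for Hist1h4d, chr13:23739512-23739527 (plus) for Hist1h1c, chr13:23555787-23555802 (plus) for Hist1h1d and chr13:23621782-23621797 (minus) for Hist1h1e. Over the same 3′ UTRs, no site was found for the miRNAs of the ESCC family (embryonic stem cell cell-cycle regulating miRNAs), which are abundant in ESCs and repress with the help of DDX6. Their shared seed, bases 2 to 8, is in capitals in the mature sequence of miR-294 (chr7:3220691-3220712, plus strand, GRCm38.p6, from RefSeq).
mmu-miR-294-3p: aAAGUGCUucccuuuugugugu
None of the 8 genes held the 8mer AGCACTTA or either 7mer within it (AGCACTT or GCACTTA), which were in 3.87% (8mer) and 22.2% (either 7mer) of the tested genes. An absent match says only that these letters were not in the annotated 3′ UTR.

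The genes lie on 7 chromosomes (GRCm38, Gencode M21), with H2afv, H2afy, H3f3a, H3f3b and H1fx on the minus strand. H2afz (ENSMUSG00000037894.13) is at chr3:137864487-137866922 and H2afv (ENSMUSG00000041126.16) at chr11:6427229-6444443. H2afx (ENSMUSG00000049932.3) is at chr9:44334694-44336077, H2afy (ENSMUSG00000015937.14) at chr13:56073619-56136361, and H3f3a (ENSMUSG00000060743.12) at chr1:180800832-180813943. H3f3b (ENSMUSG00000016559.14) is at chr11:116021912-116027962, H1f0 (ENSMUSG00000096210.1) at chr15:79028450-79030504 and H1fx (ENSMUSG00000044927.6) at chr6:87980421-87981637. H2afx, H1f0 and H1fx are each a single exon. All coding sequences but that of H2afy are short, at 384 nt in H2afz and H2afv, 408 nt in H3f3a and H3f3b, 429 nt in H2afx, 564 nt in H1fx and 582 nt in H1f0. H2afy, which encodes the histone domain and the large macro domain of macroH2A, is 1116 nt. H3f3a and H3f3b encode the same protein, yet 95 of their 408 coding bases differ. H2afz and H2afv differ at 80 of 384.

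The level of a gene is given as CPM, counts scaled to library size by the TMM method. Because each transcript gives a read at its 3′ end, CPM was not divided by length. Averaged over the 3 fractions, the order in WT was H2afv with 1734 ± 162 CPM (SD over 3 gradients), H2afx with 1049 ± 207, H3f3b with 502 ± 52.8, H2afy with 264 ± 14.2, H1fx with 80.6 ± 15.4, H2afz with 60.1 ± 6.11, H1f0 with 41.0 ± 4.76 and H3f3a with 17.8 ± 3.64. H1fx and H2afz overlapped between gradients, and the other neighbours in this order did not. In the KO, H3f3b (649 ± 77.0) and H2afx (645 ± 137) could not be ranked, nor could H1f0 (62.9 ± 1.07) and H2afz (61.8 ± 8.13). The low places of H2afz and H3f3a carry a limit of the counting. Only uniquely aligned reads were kept, and of the 50-base windows in the last 500 bases of their coding transcripts, 71.8% for H2afz and 58.3% for H3f3a also occurred in transcripts of other genes (6 and 41 genes), against none for the other 6 variants. Their counts are therefore lower than their mRNA by an unknown factor, and only changes between libraries are read from them.

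**Figure D1:**
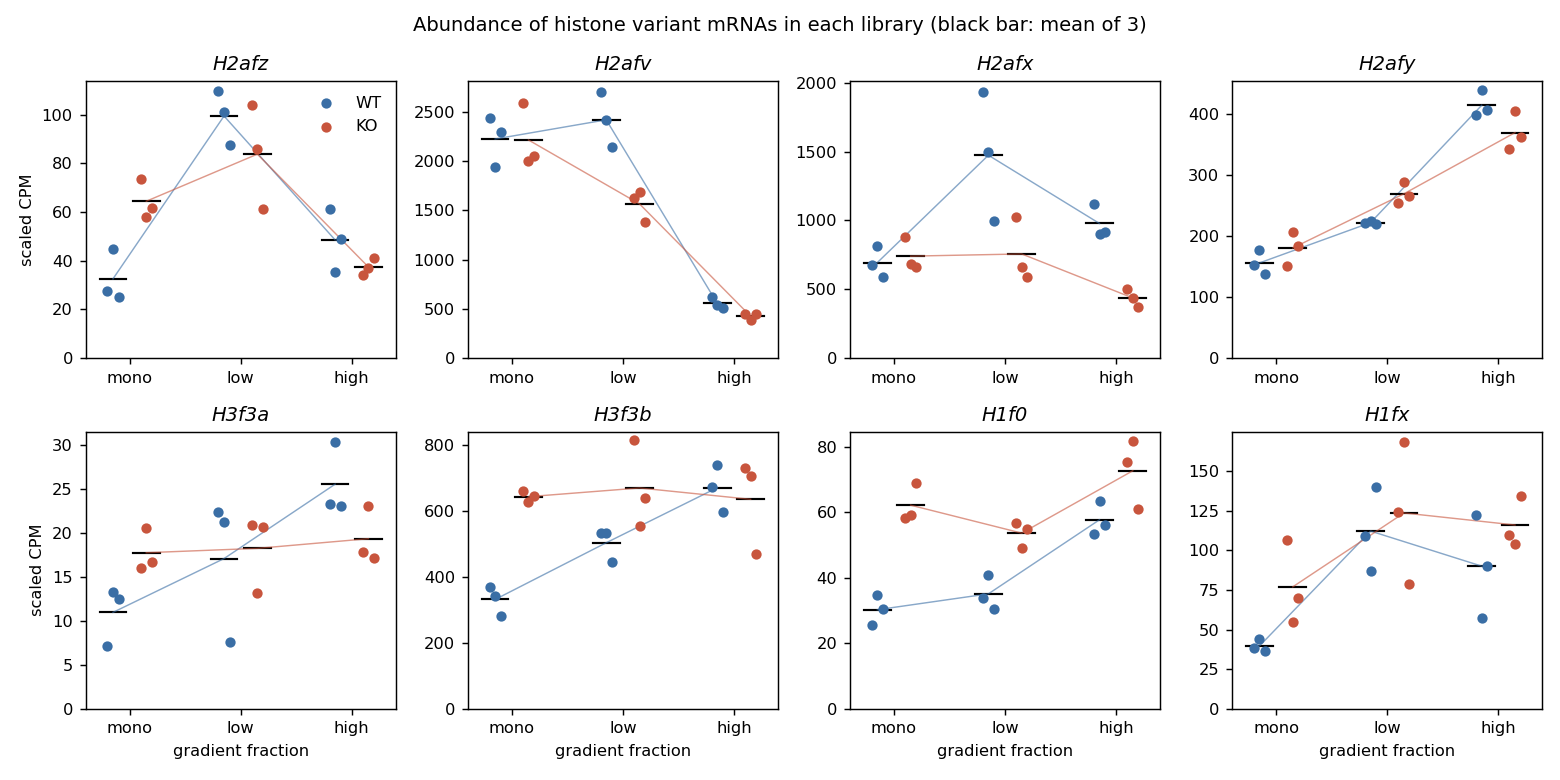
Abundance of each histone variant mRNA, in scaled CPM, by fraction (mono, low and high polysome), with WT in blue and KO in red, 1 point per library and the mean of 3 as a black bar. H2afv drops in the high polysome in both genotypes, H2afx is lower in all 3 KO high polysome libraries than in any WT one, and H3f3b and H1f0 are higher in all 3 KO monosomes.

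Total gene counts were 2543617 to 11474550 per library, lowest in WT monosomes. Ddx6 was at 143 to 212 CPM in the WT libraries and 9.68 to 82.7 CPM in the KO libraries, with 55.3 to 82.7 in clone 1. These reads come from the 3′ end and not from the edited exon, so they do not show the disruption itself. All 8 ESC markers passed the filter, with a summed level of 2078 to 3234 CPM in WT and 2327 to 3169 in KO. The 5 primitive endoderm markers summed to at most 9.80 CPM and the 5 fibroblast feeder markers to at most 11.1 in any library, and none of either list was at 0 throughout. The 5 primed epiblast and germ layer markers summed to 38.3 to 87.0 CPM in WT and 14.1 to 30.7 in KO, with Fgf5 at 0 in all libraries. The part of this difference in the results below was not tested. In such bulk samples, fewer cells that express a gene and less mRNA per cell cannot be told apart. The labels do not say that the 3 gradients of a group were separate cultures, so p-values measure the spread between these samples.

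To place the variants in WT gradients, the 3 fractions were compared with each other. Translation level is used here for the high polysome over the monosome, on the log2 scale. By this measure 5 of the 8 were on the high polysome side, 1 was on the monosome side and 2 were not called, where 28.9% of all tested genes were higher and 32.2% lower (limma, Benjamini-Hochberg adjusted p under 0.05 here and throughout). H2afy was at 153, 178 and 138 CPM in the monosomes of WT gradients 1 to 3, 221, 225 and 220 in the low polysomes and 398, 439 and 406 in the high polysomes. Its fractions did not overlap, and its translation level was 1.41 ± 0.13 (SE, adjusted p = 7.08e-09). H3f3b, the more counted H3.3 gene, was at 369, 342 and 282 CPM in the monosomes and 673, 740 and 597 in the high polysomes. Its translation level was 1.02 ± 0.17 (adjusted p = 1.96e-05). The H3.3 gene H3f3a was counted far less, with 7.17, 13.2 and 12.4 CPM in the monosomes and a mean of 25.5 ± 4.16 (SD, n = 3) in the high polysomes. All its high polysome values were above its monosome values, and its translation level was 1.17 ± 0.36 (adjusted p = 0.00832). H1fx was at 38.6, 44.1 and 36.3 CPM in the monosomes, 109, 87.2 and 140 in the low polysomes and 123, 57.2 and 90.3 in the high polysomes, lowest in the monosome in each gradient. The linker genes followed with translation levels of 1.11 ± 0.32 for H1fx (adjusted p = 0.00493) and 0.91 ± 0.17 for H1f0 (adjusted p = 7.57e-05).

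H2afv, the most counted of the 8, was distributed the other way. It held 2437, 1939 and 2301 CPM in the WT monosomes and 2699, 2422 and 2141 in the low polysomes, and then 625, 535 and 506 in the high polysomes. Every high polysome library was far below every other WT library, and the translation level was -2.00 ± 0.14 (adjusted p = 1.14e-10). Its paralog H2afz, with the same coding length, was at 27.5, 44.8 and 25.3 CPM in the monosomes, 110, 101 and 87.6 in the low polysomes and 61.3, 35.4 and 48.8 in the high polysomes. H2afz thus peaked in the low polysome, 1.64 ± 0.24 above the monosome (log2, adjusted p = 1.56e-05). Its high polysome difference from the monosome, 0.56 ± 0.24, narrowly missed the threshold (adjusted p = 0.0505), and gradient 2 went the other way from gradients 1 and 3. It was called without gradient 2 (1.04, adjusted p = 0.00372) and with the coding length trend removed (1.11, adjusted p = 0.00027). H2afx had the same peak, with 680, 811 and 591 CPM in the monosomes, 1935, 1494 and 994 in the low polysomes and 1121, 901 and 913 in the high polysomes. Its low polysome level was 1.05 ± 0.22 above the monosome (adjusted p = 0.00053), and its translation level, 0.50 ± 0.22, missed the threshold (adjusted p = 0.0507). With the gradient as a replicate block the H2afx translation level was called (0.50, adjusted p = 0.00758), and DESeq2 called both H2afz (0.60, adjusted p = 0.0171) and H2afx (0.53, adjusted p = 0.0299).

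In the low polysome, 5 of the 8 were above the monosome in WT and none was below, where 20.4% of all tested genes were higher and 22.8% lower. Besides H2afz and H2afx these were H1fx (1.47 ± 0.32), H3f3b (0.61 ± 0.17) and H2afy (0.52 ± 0.13). Of 802 tested genes with a coding length from 300 and below 500 nt, 40.9% were higher there and 11.7% lower. Between the high and the low polysome the variants split into 4 that were higher and 3 that were lower, against 29.5% and 32.6% of all tested genes. H2afy (0.90 ± 0.12), H1f0 (0.73 ± 0.15), H3f3a (0.73 ± 0.28) and H3f3b (0.41 ± 0.16) were higher in the high polysome. H2afv (-2.12 ± 0.13), H2afz (-1.07 ± 0.20) and H2afx (-0.55 ± 0.21) were lower. H1fx was not called (-0.36 ± 0.27). The 3 short H2A genes were thus on the low polysome side, while H2afy was on the high polysome side with both H3.3 genes and H1f0. Of the same 802 genes, 67.0% were also lower in the high than in the low polysome, and 7.11% were higher. With the trend on coding length removed from every library, a step described further on, H2afx was at 0.13 and H2afz at -0.22 (adjusted p = 0.324), and neither was called. Several calls were lost with fewer libraries. H3f3b missed the threshold without any 1 of the 3 WT gradients, at a like difference (0.51, 0.37 and 0.40 without gradients 1, 2 and 3, adjusted p = 0.0524, 0.154 and 0.0929). H3f3a missed it without gradient 2 (0.80, adjusted p = 0.0623) or 3 (0.28, adjusted p = 0.327) and under the replicate block (0.69, adjusted p = 0.0986). It was also not called by edgeR (0.58, adjusted p = 0.0757), by DESeq2 (0.62, adjusted p = 0.0541) or with the compared groups alone (adjusted p = 0.0852). H2afx missed the threshold without gradient 1 (-0.37, adjusted p = 0.216) or 2 (-0.47, adjusted p = 0.167) and with the compared groups alone (adjusted p = 0.0566).

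In the KO gradients the same comparison gave other calls for 5 of the genes, though the difference between the genotypes is tested only by the interaction term below. There the KO high polysome held more than the KO monosome for 2 of the 8 and less for 3, where 35.0% of all tested genes were higher and 33.6% lower. H2afy remained called higher (1.04 ± 0.12, adjusted p = 2.84e-07) and H2afv lower (-2.37 ± 0.14, adjusted p = 9.49e-12). H2afz (-0.78 ± 0.21, adjusted p = 0.00264) and H2afx (-0.76 ± 0.22, adjusted p = 0.00387) were below the monosome. H1fx (0.64 ± 0.27, adjusted p = 0.0436) missed the threshold without KO gradient 2 (0.49, adjusted p = 0.156) or 3 (0.51, adjusted p = 0.169) and without WT gradient 1 (adjusted p = 0.0513) or 3 (adjusted p = 0.0532). It also missed with edgeR (adjusted p = 0.0576), DESeq2 (adjusted p = 0.0572), library size alone (adjusted p = 0.0773) and no filter (adjusted p = 0.0568). H3f3a (0.12 ± 0.28), H3f3b (-0.05 ± 0.16) and H1f0 (0.22 ± 0.14) were not called. With the coding length trend removed, H2afz (0.33) and H2afx (0.17) changed sign and were not called, while H3f3a (1.13), H3f3b (0.97) and H1f0 (0.66) were called higher.

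To compare the translation level of each mRNA between the genotypes, the KO value was set against the WT one as an interaction term. It is built from relative levels, so a lower value can come from more in the monosome, less in the high polysome or both. The levels within each fraction are given further on. All 8 estimates were below 0, with a median of -0.87, and 4 of the 8 were called lower and none higher. Among all tested genes 7.09% were called lower and 10.7% higher, and the median was 0.02. With library size in place of TMM the split of all calls moved from 60.1% higher to 40.3% higher, and with the size factors of DESeq2 to 51.0%. Library size alone moved the median of all genes by -0.12. H2afz, H2afx, H3f3b and H1f0 were called lower under each of these scalings. H2afx and H3f3b also kept their calls without any 1 gradient, including KO gradient 1, the only gradient of the first clone.

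**Figure D2:**
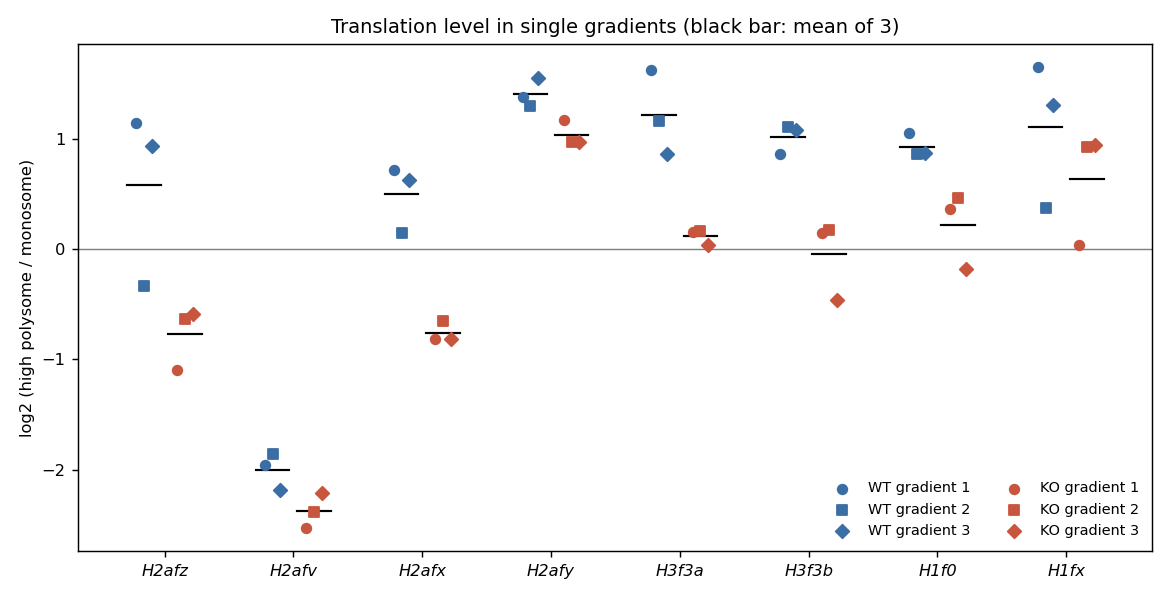
Log2 ratio of high polysome to monosome in each gradient, with WT in blue, KO in red, a symbol per gradient number and the mean of 3 as a black bar. The 3 KO gradients lie below all 3 WT gradients for every gene except H1fx.

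H2afx had a log2 translation level of 0.72, 0.15 and 0.63 in WT gradients 1 to 3, and of -0.81, -0.65 and -0.82 in KO gradients 1 to 3. The genotypes were well apart, and the interaction was -1.26 ± 0.30 (SE, adjusted p = 0.00836), or 2.39-fold lower. For H2afz the WT values were 1.14, -0.34 and 0.94 and the KO values -1.10, -0.64 and -0.59. WT gradient 2 was close to the KO range, and the interaction was -1.34 ± 0.32 (adjusted p = 0.00786). Without WT gradient 3 it was -1.11 and missed the threshold (adjusted p = 0.0513).

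H3f3b was at 0.87, 1.11 and 1.08 in WT and 0.15, 0.17 and -0.46 in KO, with an interaction of -1.07 ± 0.23 (adjusted p = 0.00439), or 2.10-fold. H3f3a was at 1.63, 1.16 and 0.86 in WT and 0.16, 0.16 and 0.03 in KO. Its estimate was of the same size as that of H3f3b, -1.05 ± 0.46, but the larger error left it uncalled (adjusted p = 0.115). It was called without WT gradient 3 (-1.22, adjusted p = 0.0475), with the compared groups alone (adjusted p = 0.0164) and by DESeq2 (adjusted p = 0.0421). The replacement linker histone H1f0 was at 1.06, 0.86 and 0.87 in WT and 0.37, 0.46 and -0.18 in KO. Its interaction, -0.70 ± 0.22 (adjusted p = 0.0313), missed the threshold without any 1 WT gradient, at a like size (-0.73, -0.73 and -0.71 without gradients 1, 2 and 3, adjusted p = 0.0629, 0.0718 and 0.0729), and without KO gradient 3 (-0.51, adjusted p = 0.194). H2afv (-0.37 ± 0.19), H2afy (-0.37 ± 0.18) and H1fx (-0.47 ± 0.42) were not called. H1fx ran from 0.37 to 1.65 in WT and from 0.04 to 0.94 in KO, and it was the only gene whose genotypes overlapped.

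The KO effect on translation level moved with coding length across the whole transcriptome, and 7 of the 8 variants have short coding sequences (384 to 582 nt). Among 802 tested genes with a coding length from 300 and below 500 nt, which include H2afz, H2afv, H2afx, H3f3a and H3f3b, the median was -0.56, with 27.7% called lower and 0.998% higher. Among 1138 genes from 500 and below 700 nt, which include H1f0 and H1fx, the median was -0.47, with 23.6% called lower. Among 1736 genes from 1000 and below 1300 nt, which include H2afy, it was -0.07, with 4.49% called lower. Within their own length range, 6.36% of genes had a lower value than H2afz, 7.61% lower than H2afx, 14.2% lower than H3f3b and 15.6% lower than H3f3a. The share was 26.0% for H2afy, 30.1% for H1f0, 49.8% for H1fx and 66.5% for H2afv. With the trend on coding length removed from every library, none of the 8 was called. Of all 11778 genes in that fit, only 2.43% were called lower and 4.81% higher. H2afz was then at -0.77 ± 0.30 (adjusted p = 0.113), H2afx at -0.71 ± 0.24 (adjusted p = 0.0823), H3f3b at -0.51 ± 0.20 (adjusted p = 0.117), H1f0 at -0.22 ± 0.20 and H2afv at 0.20 ± 0.17. Before adjustment, 3 of the 8 had a limma p under 0.05, and edgeR and DESeq2 were not run with the trend removed.

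**Figure D3:**
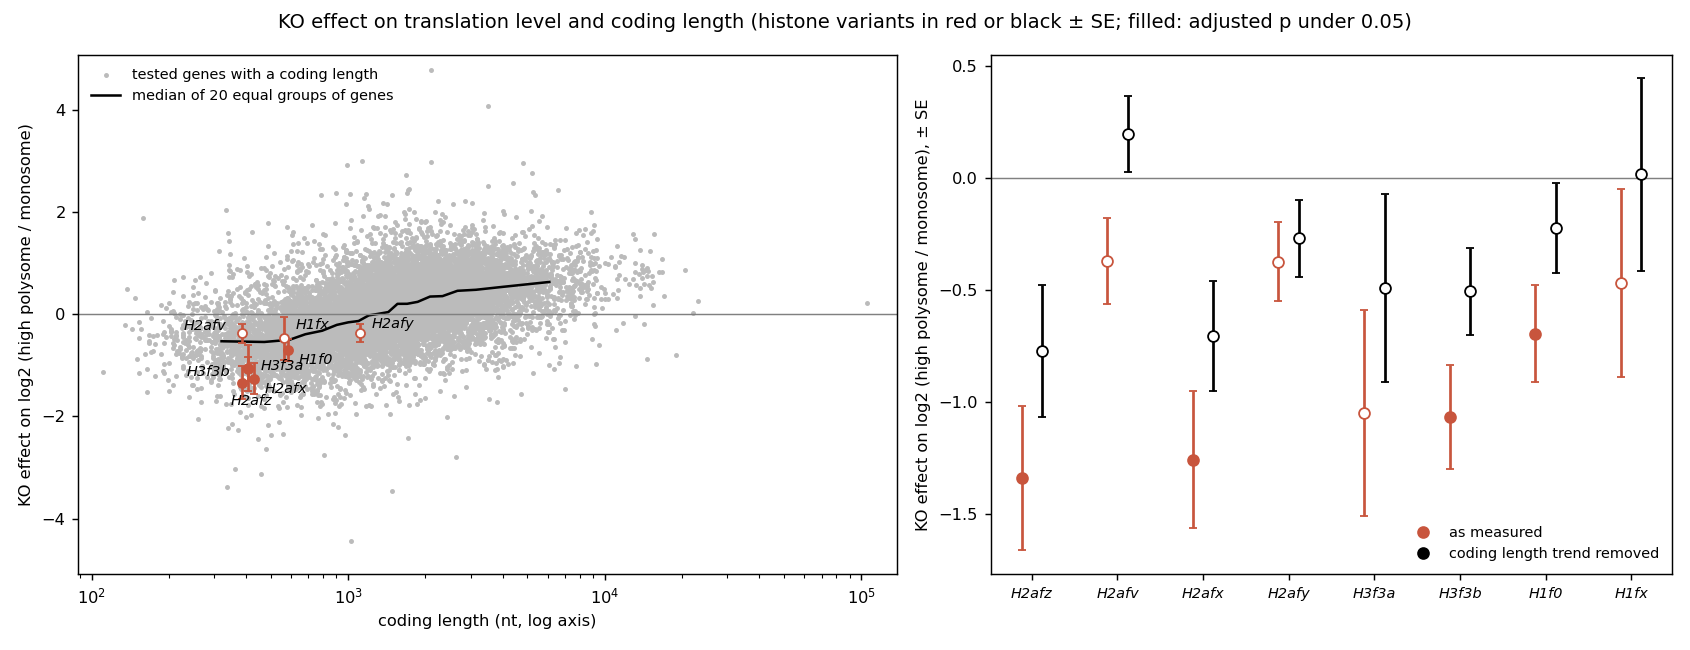
Left, KO effect on the log2 ratio of high polysome to monosome against coding length (log axis) for every tested gene with a coding length (grey), the median of 20 equal groups of genes (black line) and the 8 variants (red, ± SE). Right, the same effect for the 8 variants as measured (red) and with the coding length trend removed from each library (black), where no variant is past the threshold.

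The interaction was also taken between neighbouring fractions. Both of the following share libraries with the comparison above. Between the low polysome and the monosome, H2afz was called lower in the KO (-1.29 ± 0.31, adjusted p = 0.0255), the only call among the 8, where 2.39% of all tested genes were lower and 2.31% higher. With library size alone the split of all calls went from 49.2% to 31.7% higher. The H2afz call was lost without WT gradient 1 (-1.15, adjusted p = 0.123) or 3 (-1.18, adjusted p = 0.0725) and without KO gradient 3 (-1.13, adjusted p = 0.162). H2afx (-1.05 ± 0.30, adjusted p = 0.0509) and H2afv (-0.62 ± 0.19, adjusted p = 0.0638) were just outside the threshold. With the gradient as a replicate block both were called (adjusted p = 0.0126 and 0.0407), which made 3 of 8. H2afx in the low polysome over the monosome was 1.51, 0.88 and 0.75 in WT and 0.22, -0.05 and -0.17 in KO, with no overlap. Between the high and the low polysome, none of the 8 was called in either direction by limma, edgeR or DESeq2, and 2 (H2afy and H3f3b) had an unadjusted limma p under 0.05. Of all tested genes, 3.39% were higher and 1.03% lower there, a split of 76.7% higher that went to 60.3% with library size alone and 60.7% with DESeq2 size factors.

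Within single fractions, KO and WT abundance differed in a way that depended on the gene. In the monosome 4 of the 8 were higher in the KO and none was lower, against 18.6% and 20.1% of all tested genes. H1f0 was at 25.5, 34.8 and 30.5 CPM in WT monosomes and 58.3, 59.3 and 69.0 in KO monosomes, 1.02 ± 0.17 higher on the log2 scale (adjusted p = 7.41e-05). H3f3b was at 659, 626 and 644 CPM in KO monosomes, all above the WT values given earlier, and 0.97 ± 0.17 higher (adjusted p = 0.000118). H2afz was at 73.6, 57.9 and 61.7 CPM in KO monosomes, also above all WT ones, and 1.01 ± 0.24 higher (adjusted p = 0.00249). H1fx was 0.90 ± 0.32 higher (adjusted p = 0.0317), a call lost without KO gradient 1 (0.64, adjusted p = 0.170) and without WT gradient 1 (adjusted p = 0.0545) or 3 (adjusted p = 0.112). H2afx (0.09 ± 0.22), H2afv (-0.01 ± 0.13), H2afy (0.21 ± 0.13) and H3f3a (0.65 ± 0.37) were not called.

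In the low polysome 2 were lower and 2 higher in the KO, against 24.3% and 23.4% of all tested genes. H2afx was at 1024, 660 and 586 CPM in KO low polysomes, overlapping with the lowest WT library, and -0.95 ± 0.21 on the log2 scale (adjusted p = 0.00104). H2afv was at 1631, 1689 and 1380 CPM, below all WT ones, and -0.63 ± 0.13 (adjusted p = 0.000663). H1f0 was higher at 56.8, 49.2 and 55.0 CPM against 33.9, 41.0 and 30.4 in WT (0.62 ± 0.15, adjusted p = 0.00167). H3f3b sat at the threshold (0.40 ± 0.16, adjusted p = 0.0495), and its call was lost without any gradient other than KO gradient 2 (adjusted p from 0.0728 to 0.214). In the high polysome 2 were lower and none higher by limma, edgeR or DESeq2, against 21.1% and 25.3% of all tested genes, and 3 had an unadjusted limma p under 0.05. H2afx was at 500, 437 and 374 CPM there, where its lowest WT library was at 901, and was 2.24-fold lower by the fit (-1.16 ± 0.21, adjusted p = 0.00018). H2afv was -0.38 ± 0.14 (adjusted p = 0.0270), lost without WT gradient 1 (adjusted p = 0.0508), WT gradient 2 (adjusted p = 0.0513) or KO gradient 2 (-0.31, adjusted p = 0.120). With the coding length trend removed H2afv was at -0.05 (adjusted p = 0.782), and H1f0 (0.58) and H1fx (0.70) were called higher.

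**Figure D4:**
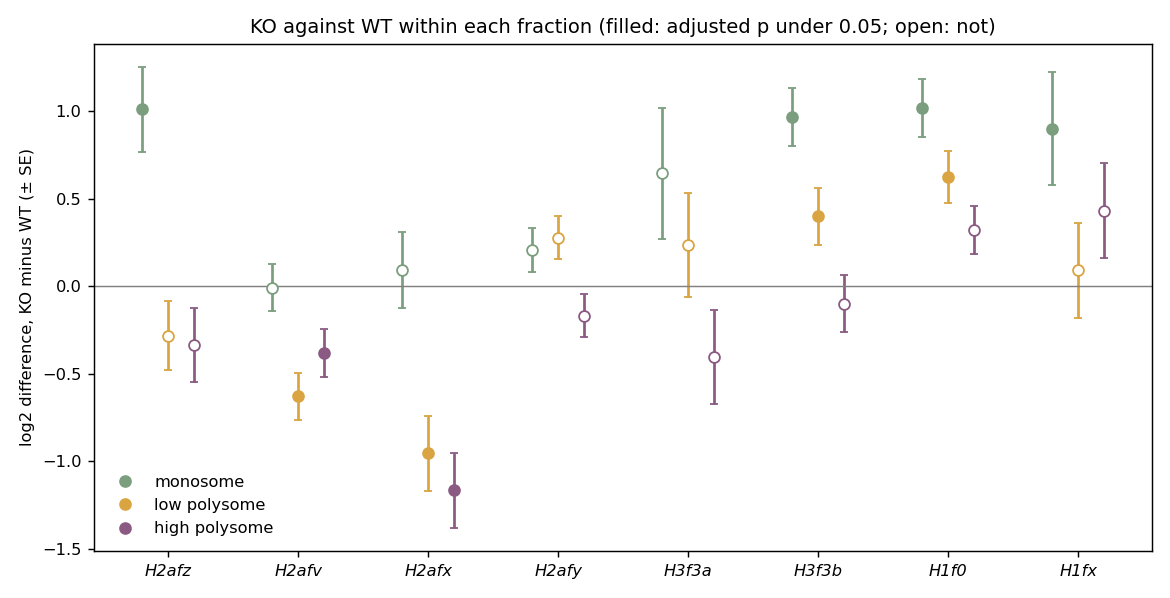
Log2 difference of KO from WT (± SE) of each variant within the monosome (green), low polysome (yellow) and high polysome (purple), filled where the adjusted p was under 0.05. The monosome point is the highest of the 3 for every gene except H2afy, and H2afx reaches -1.16 in the high polysome.

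Averaged over the 3 fractions of each gradient, 3 of the 8 were higher in the KO and 2 lower, against 28.3% and 28.4% of all tested genes. H1f0 was higher (0.66 ± 0.10, adjusted p = 0.000135), as were H1fx (0.47 ± 0.12, adjusted p = 0.00467) and H3f3b (0.42 ± 0.11, adjusted p = 0.00483). H2afx was lower (-0.67 ± 0.14, adjusted p = 0.00148), and so was H2afv (-0.34 ± 0.10, adjusted p = 0.00884). All 5 calls held in each alternative run, with the highest adjusted p at 0.0440 for H2afv. H2afz (0.13 ± 0.10), H2afy (0.10 ± 0.09) and H3f3a (0.18 ± 0.15) were not called. These averages weigh the 3 fractions equally and are not a measure of total mRNA.

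Paralogs were then set against each other within each library, as log2 ratios of their counts with 0.5 added. For H2afz over H2afv the WT monosomes were at -6.46, -5.43 and -6.50 and the KO monosomes at -5.14, -5.11 and -5.06, so all KO values were higher, by 1.03 on average. In the low polysome the ratios were -4.62, -4.58 and -4.61 in WT and -3.97, -4.30 and -4.49 in KO, again without overlap. Both gave an exact permutation p of 0.1, two-sided, which is the smallest that 3 against 3 allows (0.6 after adjustment over the 12 ratios tested). In the high polysome the difference between genotypes was 0.04 (exact permutation p = 0.9). The high polysome less monosome difference was 3.11, 1.52 and 3.13 in WT and 1.43, 1.74 and 1.62 in KO. There the genotypes overlapped (exact permutation p = 0.3). H3f3b over H3f3a lay between 4.49 and 5.85 in all 18 libraries, and its high polysome less monosome difference was -0.22 ± 0.52 (SD) in WT and -0.16 ± 0.28 in KO (exact permutation p = 0.8). H1f0 over H1fx overlapped between genotypes in every fraction (exact permutation p from 0.5 to 1).

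The replication-dependent histone genes gave a setting for these values, though most were weakly counted. Where their mRNAs end in the stem-loop, the values are taken to be for a polyadenylated form only. Of 68 such genes 31 passed the filter. Of these, 26 were above the monosome in the WT low polysome and 1 below, with a median of 1.33, against 20.4% and 22.8% of all tested genes. Between the WT high and low polysome 21 were lower and 5 higher, against 32.6% and 29.5% of all tested genes. The 5 were the linker genes Hist1h1a, Hist1h1b, Hist1h1c, Hist1h1d and Hist1h1e, from 0.61 to 1.54, and the 26 core genes were all below 0, with a median of -1.47. H1f0 (0.73) lay within the range of these linker genes, but so did H3f3a (0.73) and H2afy (0.90), which do not encode linker histones. H2afx (-0.55), H2afz (-1.07) and H2afv (-2.12) lay within the range of the core genes, -2.86 to -0.33, as did the linker variant H1fx (-0.36). H3f3a and H3f3b were above that whole range. Of all 802 tested genes from 300 and below 500 nt, 67.0% were lower in the high than in the low polysome and 7.11% higher, with a median of -0.98. These include H2afz, H2afv, H2afx, H3f3a and H3f3b. In the WT low polysome over the monosome 40.9% of the 802 were higher and 11.7% lower. In the low polysome 12 of the 31 were lower in the KO and 1 (Hist1h2bc) higher, with a median of -0.52 for the list. Of all tested genes 24.3% were lower there and 23.4% higher. For those from 300 and below 500 nt the shares were 41.9% lower and 11.6% higher. In the mean over fractions 8 of the 31 were lower and 3 higher, against 28.4% and 28.3% of all tested genes, among them Hist1h4d (-0.67 ± 0.10) on the lower side and Hist1h2bc (1.72 ± 0.19) and Hist1h4i (0.47 ± 0.15) on the higher. The KO effect on translation level of the 31 had a median of -0.56, with 3 called lower and none higher. Of all tested genes 7.09% were called lower and 10.7% higher by this term. With the coding length trend removed its median was -0.02 and none was called by limma (1 had an unadjusted p under 0.05). Of all genes in that fit 2.43% were called lower and 4.81% higher.

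**Figure D5:**
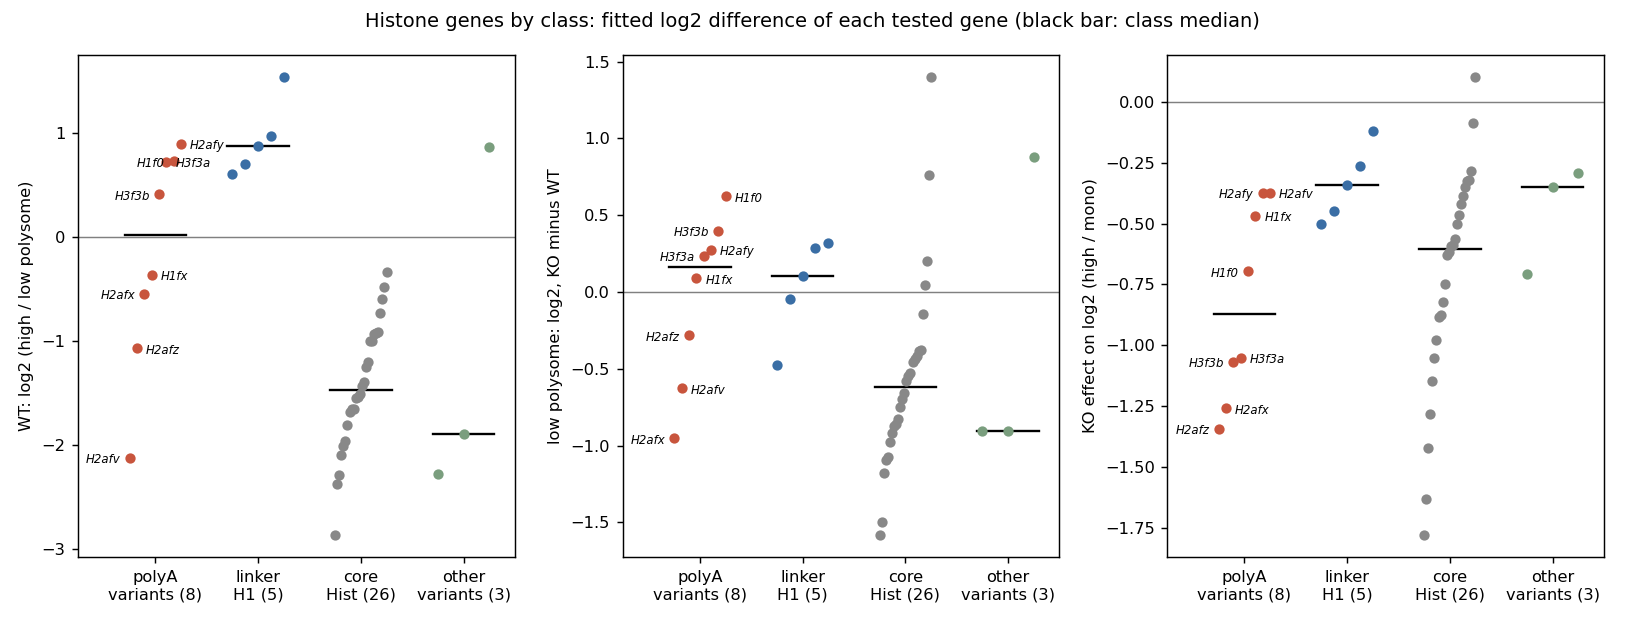
Fitted log2 difference of each tested histone gene by class, for the WT high polysome over the low polysome (left), KO against WT in the low polysome (middle) and the KO effect on the ratio of high polysome to monosome (right), with class medians as black bars. On the left the 5 linker H1 genes are above 0 and the 26 core genes below, and the 8 polyadenylated variants span both.

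Of 19 other variants listed, 9 passed the filter, 6 of them also counted among the Hist1h to Hist4h genes. The centromeric H3 gene Cenpa, with a mean of 874 CPM, and H2afj were placed like H2afv, at -1.90 ± 0.20 and -2.28 ± 0.25 between the WT high and low polysome, and both were lower in the KO in the mean over fractions (-0.66 ± 0.12 and -0.62 ± 0.17). H2afy2, which encodes the other macroH2A, was placed like H2afy (0.87 ± 0.22), and was higher in the KO in that mean (0.63 ± 0.13, adjusted p = 0.00104), where H2afy was not called. In KO effect on translation level 2 of the 9 were lower, Hist1h2bc (-1.42 ± 0.46) and Hist3h2a (-1.28 ± 0.38), and none was higher, with a median of -0.71. The shares over all tested genes were 7.09% lower and 10.7% higher. With the length trend removed none of the 9 was called by limma, and 1 had an unadjusted p under 0.05. Over all genes in that fit the shares were 2.43% lower and 4.81% higher.

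The genes that place these histones were compared in the same way, where over all tested genes 10.7% had a higher and 7.09% a lower KO translation level, or 4.81% and 2.43% with the coding length trend removed (a count for the lists chosen after seeing the data). Of 12 genes for H3.3 and CENP-A deposition, 1 had a higher KO translation level (Ubn1, a HIRA complex subunit, 0.66 ± 0.19) and 1 a lower one (Asf1b, an H3-H4 chaperone, -0.71 ± 0.22), with a median of -0.10. In the mean over fractions 3 of the 12 were higher in the KO and 5 lower, against 28.3% and 28.4% of all tested genes. Atrx, which with Daxx loads H3.3 at telomeres, was lower at -1.01 ± 0.12 (adjusted p = 1.66e-05) and Hira at -0.39 ± 0.09, while Daxx was higher (0.41 ± 0.10). With the length trend removed, the translation level effect was called lower for 2 of the 12 (Daxx and Hira) and higher for none. Of 10 tested genes for H2A.Z exchange, 2 had a higher translation level in the KO and none a lower one, the TIP60/p400 subunits Ep400 (1.11 ± 0.18, adjusted p = 0.000634) and Dmap1 (0.99 ± 0.27), with a median of 0.02. With the length trend removed only Dmap1 was called.

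Of 14 general histone chaperones, 6 had a higher KO translation level and none a lower one, with a median of 0.55. The 5 largest were Ipo4 (1.13 ± 0.28), Supt6 (0.90 ± 0.26), Nap1l1 (0.80 ± 0.16), Rbbp7 (0.76 ± 0.17) and Ssrp1 (0.75 ± 0.20). With the length trend removed the median was 0.28, and 3 of the 14 were called higher (Nap1l1, Npm1 and Rbbp7). In the mean over fractions 2 of the 14 were higher and 8 lower, against 28.3% and 28.4% of all tested genes. The lower ones were led by Npm1 (-0.95 ± 0.10) and Nasp (-0.70 ± 0.11). Of 10 genes that process histone mRNA 3′ ends, 2 had a higher translation level in the KO, the cleavage factors Cpsf2 (1.03 ± 0.21) and Cpsf3 (0.83 ± 0.21), and 1 a lower one, the U7 snRNP protein Lsm10 (-0.64 ± 0.21). With the length trend removed only Cpsf2 was called. Slbp, whose product binds the stem-loop, was higher in the WT high polysome than in the low polysome (1.50 ± 0.20) and was not called in its KO translation level.

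Over the 18 libraries, the genes whose log2 CPM was most like that of each variant were found among 9029 genes with a mean of at least 10 CPM. The points share gradients, fractions and genotypes, so the correlations are descriptions. H2afv was closest to Fam104a (Pearson r = 0.995), Uqcc2 (0.992) and Atp5e (0.992). H2afy was closest to Lman1 (0.983), Chmp2a (0.977) and Gtf2e2 (0.976), and H1f0 to Gm49342 (0.970), Cited2 (0.961) and Gsto1 (0.957). H2afx was closest to Gabarapl2 (0.952), Cd276 (0.922) and Fut10 (0.921), and H2afz to Med8 (0.944), Nudt2 (0.938) and Ly6e (0.923). H3f3b was closest to Magohb (0.940), Cd9 (0.904) and Arl6 (0.896), H3f3a to Commd1 (0.920), Tex30 (0.914) and Gemin6 (0.910), and H1fx to Edf1 (0.944), Pigt (0.909) and Clic1 (0.898). No variant was among the 3 most like another. Between variants the highest r was 0.813, for H3f3b and H1f0, and the lowest was -0.891, for H2afv and H2afy.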

How the data were processed

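Libraries were made by the submitters with the QuantSeq 3′ mRNA-seq kit (forward) from monosome, low polysome and high polysome RNA, and sequenced as 50-base single-end reads. According to the study's methods and the submitters' processing notes, the authors trimmed reads with cutadapt 1.14, aligned them with STAR 2.5.3a to mm10 keeping unique alignments only, and counted the sense strand with featureCounts 1.5.3 on the Gencode M14 basic annotation without rRNA. The values used are the deposited raw counts per gene, not normalized. Unique alignment removes reads that fit several genes, which touches H2afz and H3f3a.

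From these counts, genes with at least 3 CPM in at least 3 of the 18 libraries were kept (12705 genes, 99.64% of counts), scaled by TMM (edgeR 4.0.16) and fitted with limma-voom (limma 3.58.1, R 4.3.3) over 6 group means, with two-sided p-values adjusted by Benjamini-Hochberg. The KO effect on translation level is the interaction of genotype with fraction. Means over fractions were formed per gradient and fitted by limma-trend, 3 gradients against 3. Per-gradient ratios used a pseudocount of 0.5 CPM. Depth per library was 2543617 to 11474550 counts. The lowest count of any of the 8 genes was 18, for H3f3a in a WT monosome. In simulated data for the interaction in 12444 genes, 39% of 100 genes changed by a log2 of 1 and 97% of 100 changed by 2 were recovered, and 0.106% of unchanged genes were called. The changed genes had a mean of at least 10 CPM, libraries were drawn independently, and no trend with coding length was put in. These rates are therefore not the error rates of the real calls.

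Fractions of a gradient come from a single lysate, so they are paired by design. Residual correlations within a gradient ran from -0.159 to 0.415, over 0.1 in 7 of 18 pairs. Between genotypes, for the same fraction, they ran from -0.367 to 0.514 with another gradient number (over 0.1 in 5 of 18 pairs). With the same number they ran from -0.448 to 0.221 (2 of 9). The range within gradients is thus not particular to them. The fit with the gradient as a block is given where it changed a call. Alternatives were other scalings, no filter, edgeR's quasi-likelihood test, DESeq2 1.42.0, the compared groups alone, blocks, removal of the trend on coding length, another pseudocount, and leaving out each gradient. Gene positions, 3′ UTRs and coding lengths came from Gencode M21 (GRCm38), and miRNA sequences from RefSeq (GRCm38.p6). All 8 genes were named in every comparison. Of each list, at most 5 genes per direction and comparison with a call and a mean of at least 10 CPM were named, by size of change, and 1 gene that this rule would name is not reported here. The counts of list genes with the length trend removed were added after seeing the data. The 8 genes, the gene lists and the length alternative were chosen with earlier results of these data known, so no list count is independent evidence. The 92 spike-in rows were left out of scaling and tests (28 to 169 counts per library).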

Additional observations from a re-analysis of the deposited data

Results flagged for a closer look

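Several effects differed between genotypes by the interaction term itself. Among the 8 variants these were the KO effects on translation level of H2afz (-1.34), H2afx (-1.26), H3f3b (-1.07) and H1f0 (-0.70), and the KO effect on the low polysome over the monosome of H2afz (-1.29), all on the log2 scale. With the coding length trend removed none of these was called. In that fit 2.43% of all genes had a lower KO translation level and 4.81% a higher one. Both H2afz calls and the H1f0 call were also lost when certain single gradients were left out, as given above.

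Among the related genes the KO effect on translation level passed the same test for Hist1h2bc (-1.42), Hist3h2a (-1.28), Asf1b (-0.71) and Lsm10 (-0.64), which were lower in the KO. It passed for Ubn1 (0.66), Ep400 (1.11), Dmap1 (0.99), Ipo4 (1.13), Supt6 (0.90), Nap1l1 (0.80), Rbbp7 (0.76), Ssrp1 (0.75), Cpsf2 (1.03) and Cpsf3 (0.83), which were higher. Of these related genes only Dmap1, Nap1l1, Rbbp7 and Cpsf2 were still called with the coding length trend removed. The groups of 3 libraries were too small for a test of single outlying samples.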

How the results depend on the processing

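Of 1232 values of the 8 genes under alternatives, 1099 kept direction and side of the threshold, 51 lost a call, 46 gained a call and 36 changed sign. With the coding length trend removed, which leaves 11778 genes, the calls among the 8 became 1 lower in the WT high over low polysome (3 before), 5 higher and 1 lower in the KO high polysome over monosome (2 and 3), 0 lower in the KO effect on translation level (4) and in that on the low polysome over the monosome (1), and 2 higher and 1 lower in KO against WT in the high polysome (0 and 2). Signs changed there for H2afv (-0.19) and H1f0 (-0.053) in the WT low polysome over monosome, H2afx (0.13) in the WT high over low polysome, H2afz (0.33), H2afx (0.17) and H3f3b (0.97) in the KO high polysome over monosome, H2afv (0.20) and H1fx (0.015) in translation effect, H2afy (-0.036) and H3f3a (0.042) in the low polysome over monosome effect, H2afz (0.043) in the high over low polysome effect, H2afx (-0.14) in the monosome, and H2afz (0.00074) and H3f3b (0.22) in the high polysome.

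In the KO high polysome over monosome, 1 gene in place of 2 was called higher with library size alone, no filter, edgeR or DESeq2. In the KO effect on the low polysome over the monosome, 3 in place of 1 were called lower with library size alone, the gradient as a replicate block or DESeq2, and 2 with no filter or edgeR. In the low polysome, 1 in place of 2 was called higher in the KO with library size alone, DESeq2 size factors or the compared groups only. H2afv in the monosome was 0.058 with library size alone, 0.093 with no filter and 0.0056 with the compared groups only. The H3f3b over H3f3a difference of high polysome less monosome was -0.077 with a pseudocount of 5 counts. The replicate number as a replicate block across genotypes, where the number is only a label, changed none of 32 values. The cause of these changes was not tested.

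Leaving out 1 gradient at a time gave 2 to 4 calls higher in the WT high over low polysome, 1 to 2 higher in the KO high polysome over monosome, 0 to 2 lower in the low polysome over monosome effect, 1 to 2 higher in the KO low polysome, and 0 to 1 higher and 1 to 2 lower in the KO high polysome. Ranges that crossed 0 were -0.038 to 1.04 for H3f3a in the WT low polysome over monosome, -0.16 to 0.18 for H3f3b in the KO high polysome over monosome, -0.030 to 0.15 for H2afy and -1.02 to 0.058 for H3f3a in the low polysome over monosome effect, and -0.33 to 0.19 for H2afz, -0.40 to 0.0045 for H2afx and -0.061 to 0.67 for H1fx in the high over low polysome effect. In KO against WT they were -0.12 to 0.066 for H2afv and -0.029 to 0.21 for H2afx in the monosome, -0.28 to 0.52 for H3f3a and -0.16 to 0.36 for H1fx in the low polysome, and -0.21 to 0.084 for H3f3b in the high polysome. For paralog ratios they were -0.041 to 0.60 (low polysome) and -0.23 to 0.27 (high polysome less monosome) for H3f3b over H3f3a, -0.15 to 0.14 (high polysome) for H2afz over H2afv, and -0.047 to 0.45 (monosome), -0.41 to 0.27 (high polysome) and -0.62 to 0.11 (high polysome less monosome) for H1f0 over H1fx.

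Over all genes, without KO replicate 3 the translation effect had 471 genes higher and 277 lower (1357 and 901 with all libraries), the low polysome over monosome effect 23 and 6 (294 and 304), and the high over low polysome effect 0 and 0 (431 and 131). The highest counts were 1621 higher with the compared groups only and 1386 lower with library size alone for translation, 546 and 527 with DESeq2 for the low polysome over monosome effect, and 534 and 489 with DESeq2 for the high over low polysome effect. With no filter, 10866 genes in place of 4086 were lower in the WT high polysome over monosome, and 3929 in place of 2548 in the KO monosome. The low counts of H3f3a (18 in 1 library) limit its precision.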
